A study of Mus musculus with 9 samples.

Results

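Neil3 is one of the DNA glycosylases that open base excision repair, and its mRNA is described here together with that of 8 other glycosylases and of the endonuclease Apex1 in sorted cells of the adult mouse brain. The genes were Neil3, Neil1, Neil2, Nthl1, Ogg1, Mutyh, Ung, Tdg, Mbd4 and Apex1, chosen by name with earlier results of these arrays in view, the difference of Neil3 between regions among them. Every non-control probe whose gene name was one of these was taken, which gave 17 of 41174 probes. All 10 genes were among the 24891 genes measured. Neil3 and Mutyh had 3 probes each, Neil1, Ogg1 and Tdg had 2 each, and the other 5 genes had 1.

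RNA was hybridised to 9 Agilent arrays with a single dye, and each of the 3 groups had 3 of them. The SVZ Sox2-GFP group held cells of the subventricular zone (SVZ), the germinal layer along the lateral ventricle, from a transgenic line that makes green fluorescent protein under the Sox2 promoter. The hippocampus Sox2-GFP group held cells of the hippocampus from the same line. The hippocampus DCX-DsRed group held hippocampal cells from a second transgenic line, which makes the red protein DsRed under the Dcx promoter. Sox2 is a transcription factor of neural stem cells and also of astrocytes and ependymal cells, and Dcx encodes doublecortin, a microtubule protein of newborn neurons. All mice were 6 to 8 weeks old, tissue of 10 dissections was pooled for an experiment, and the cells were sorted by fluorescence. RNA of 1000 cells was amplified for each array, so a level is a property of a sorted pool, in which fewer cells of a type and less RNA per cell cannot be told apart. Strain and sex are not given in the sources used here, and the labels leave unsaid if a group's replicates A, B and C were pooled from different mice.

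Base excision repair removes single damaged or misplaced bases. A glycosylase flips the base out and cuts it from the sugar, an endonuclease or the glycosylase itself nicks the backbone at the empty site, and a polymerase and a ligase restore the strand. Neil3 favours single-stranded DNA, and it unhooks crosslinks between strands at stalled replication forks, as shown in Xenopus egg extracts. In rodents it is known for expression in proliferating cells and in the neurogenic regions of the brain.

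Values are log2 of the processed signal minus the 75th percentile of all non-control probes on that array. A level of 0 is that percentile, a difference of 1 is a factor of 2, and levels of different probes are not set against each other, since probes differ in brightness. The share of probes that stood well above local background was 80.2% on the lowest array and 88.3% on the highest. Hippocampus Sox2-GFP replicate C stood apart, with correlations of 0.705 to 0.816 with the other 8 arrays, which correlated with each other at 0.779 to 0.919. The Sox2 mRNA did not follow the sort, at 0.92, 2.07 and 2.28 in SVZ Sox2-GFP, 0.94, 0.92 and -0.95 in hippocampus Sox2-GFP, and 1.30, 1.71 and 1.70 in hippocampus DCX-DsRed. Dcx overlapped between all groups, at 2.57, 3.05 and -2.36 in SVZ Sox2-GFP, -0.20, -0.77 and -2.88 in hippocampus Sox2-GFP, and -1.29, -0.78 and 1.28 in hippocampus DCX-DsRed. Markers of choroid plexus epithelium moved with the groups: of 9 measured, 5 were called lower in SVZ Sox2-GFP than in hippocampus Sox2-GFP, and 7 higher in hippocampus Sox2-GFP than in hippocampus DCX-DsRed (limma, adjusted p under 0.05). Their summed linear level ran from 1.95 to 2.98 in SVZ Sox2-GFP, from 52.2 to 176 in hippocampus Sox2-GFP and from 2.02 to 2.67 in hippocampus DCX-DsRed, in multiples of the 75th percentile. Ependymal markers moved as well: of 7 measured, 6 were called higher in hippocampus Sox2-GFP than in hippocampus DCX-DsRed and 1 higher in SVZ Sox2-GFP than in hippocampus DCX-DsRed. Between the Sox2-GFP groups limma called none (5 at an unadjusted p under 0.05), and 5 were lower in SVZ Sox2-GFP with no overlap. Their summed level was 2.17 to 4.69 in SVZ Sox2-GFP, 13.2 to 23.6 in hippocampus Sox2-GFP and 0.412 to 0.880 in hippocampus DCX-DsRed. Summed levels of 10 myelin markers were 23.5 to 81.2 in SVZ Sox2-GFP, 2.26 to 39.4 in hippocampus Sox2-GFP and 276 to 360 in hippocampus DCX-DsRed. Astrocyte markers (10) summed to 85.7 to 170 in SVZ Sox2-GFP, 15.9 to 95.8 in hippocampus Sox2-GFP and 32.2 to 40.9 in hippocampus DCX-DsRed. Newborn neuron markers (7 measured) summed to 4.63 to 28.4 in SVZ Sox2-GFP, 3.35 to 9.17 in hippocampus Sox2-GFP and 10.2 to 11.6 in hippocampus DCX-DsRed. Hippocampus Sox2-GFP replicate C gave the highest choroid plexus sum of its group and the lowest sum of the other lists given here. The part of these cells in the levels below was not tested.

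Promoters of the 4 genes whose brightest probe separated at least 1 pair of groups without overlap are shown, since these are the genes the results turn on. Each line gives the 250 bases before the annotated start, 5′ to 3′ on the gene's strand, from RefSeq (build GRCm38.p6). Neil3 lies on chromosome 8 (chr8:53639066-53639315, minus strand), Neil1 on chromosome 9 (chr9:57148306-57148555, minus strand), Nthl1 on chromosome 17 (chr17:24632432-24632681, plus strand) and Ung on chromosome 5 (chr5:114130185-114130434, plus strand). Capitals mark matches on either strand to an E2F site, a CCAAT box, whose letters are its name, or a GC box (GGGCGG). An E2F site was searched as TTCCCGC and as its variants, which were TTGGCGC, then TTCGCGC, and last TTGCCGC.
Neil3: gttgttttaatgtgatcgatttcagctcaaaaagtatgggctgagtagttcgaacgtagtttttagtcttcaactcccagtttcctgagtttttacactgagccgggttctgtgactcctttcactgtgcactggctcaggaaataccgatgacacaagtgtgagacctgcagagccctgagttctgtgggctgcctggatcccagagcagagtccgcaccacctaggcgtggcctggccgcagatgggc
Neil1: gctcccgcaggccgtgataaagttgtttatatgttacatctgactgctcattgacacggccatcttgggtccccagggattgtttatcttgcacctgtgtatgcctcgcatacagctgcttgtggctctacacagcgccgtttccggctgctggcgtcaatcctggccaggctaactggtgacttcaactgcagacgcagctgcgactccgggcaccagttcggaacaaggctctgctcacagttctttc
Nthl1: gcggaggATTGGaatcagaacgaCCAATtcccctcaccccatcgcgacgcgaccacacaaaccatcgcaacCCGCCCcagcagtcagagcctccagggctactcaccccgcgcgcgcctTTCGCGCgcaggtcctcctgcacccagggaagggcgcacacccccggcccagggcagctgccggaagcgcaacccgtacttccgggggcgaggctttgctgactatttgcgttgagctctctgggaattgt
Ung: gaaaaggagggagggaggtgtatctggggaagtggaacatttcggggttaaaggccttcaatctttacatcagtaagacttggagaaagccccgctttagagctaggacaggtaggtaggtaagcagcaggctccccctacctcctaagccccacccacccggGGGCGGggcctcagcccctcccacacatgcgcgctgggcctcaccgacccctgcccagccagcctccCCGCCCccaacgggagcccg

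Neither the Neil3 nor the Neil1 window held a match to any of the 3 motifs. The Nthl1 window held 1 E2F site, 2 CCAAT boxes and 1 GC box, and the Ung window held 2 GC boxes. Of 32851 promoters of the same length, 7.89% held an E2F site, 33.8% a CCAAT box and 32.7% a GC box. GC content was 51.6% for Neil3, 54.8% for Neil1, 65.2% for Nthl1 and 62.8% for Ung. Promoters were found for 9 of the 10 genes, and Neil2 was not among them. A match is a run of letters, and a window without one says nothing about the factor.

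Neil3 signal was highest in SVZ Sox2-GFP cells. Its brightest probe (A_51_P319986), which stands for the gene, read 0.28, -0.52 and -0.51 on SVZ Sox2-GFP replicates A, B and C, -2.65, -2.70 and -2.27 on the hippocampus Sox2-GFP replicates and -2.33, -1.66 and -1.96 on the hippocampus DCX-DsRed replicates. Each SVZ array lay above all 6 hippocampal arrays, and SVZ replicate A was the highest of all. The hippocampal groups overlapped, with hippocampus Sox2-GFP replicate C above hippocampus DCX-DsRed replicate A. The probe was well above background on all 9 arrays. As unscaled processed signal it read 1549, 654 and 566 units in SVZ Sox2-GFP, 167, 146 and 217 units in hippocampus Sox2-GFP and 258, 410 and 222 units in hippocampus DCX-DsRed.

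On group means, Neil3 stood at -0.25 ± 0.46 in SVZ Sox2-GFP, -2.54 ± 0.24 in hippocampus Sox2-GFP and -1.98 ± 0.34 in hippocampus DCX-DsRed (SD, n = 3 arrays each). The SVZ Sox2-GFP minus hippocampus Sox2-GFP difference was 2.29 (SE 0.385), a 4.89-fold higher signal in the SVZ. Against hippocampus DCX-DsRed the SVZ level was 3.32-fold higher, a difference of 1.73 with the same SE. Hippocampus Sox2-GFP minus hippocampus DCX-DsRed was -0.56. These differences helped to choose the gene, so they are given as a description, with no test. Under 20 other settings SVZ Sox2-GFP minus hippocampus Sox2-GFP kept its sign, with differences of 1.75 to 2.69. Some of these settings, such as the replicate block, cannot change a difference of group means.

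**Figure D1:**
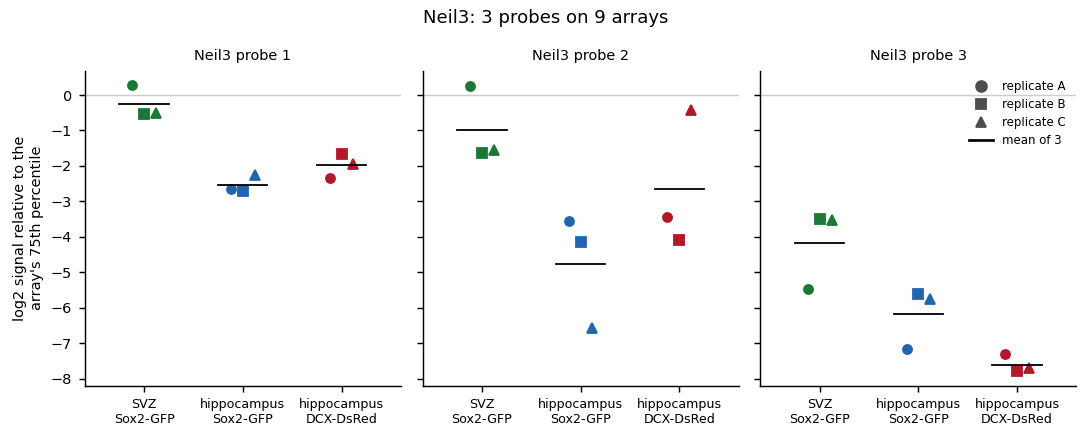
Level of the 3 Neil3 probes (vertical axis, log2 signal minus that array's 75th percentile) in SVZ Sox2-GFP, hippocampus Sox2-GFP and hippocampus DCX-DsRed cells; symbols are replicates A, B and C and the bar is the mean of 3 arrays. Probes 1 and 2 were higher on each SVZ array than on each hippocampus Sox2-GFP array, probe 2 overlapped between SVZ and hippocampus DCX-DsRed cells, and probe 3 was well above background on 1 of 6 hippocampal arrays.

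The other Neil3 probes lay 13.8 and 6.18 kb from the brightest one by the files' own coordinates, whose build is not given in the sources used here. The second (A_52_P251366) read 0.26, -1.63 and -1.56 in SVZ Sox2-GFP, -3.57, -4.14 and -6.57 in hippocampus Sox2-GFP and -3.45, -4.08 and -0.42 in hippocampus DCX-DsRed. SVZ replicate A was again the highest array, hippocampus Sox2-GFP replicate C was not well above background, and hippocampus DCX-DsRed replicate C fell within the SVZ range, so that only the 2 Sox2-GFP groups separated. Their difference was 3.78 (SE 1.14), and 2.88 without hippocampus Sox2-GFP replicate C. The third (A_51_P195783), the dimmest, read -5.47, -3.50 and -3.54 in SVZ Sox2-GFP, -7.16, -5.60 and -5.75 in hippocampus Sox2-GFP and -7.32, -7.80 and -7.71 in hippocampus DCX-DsRed. All SVZ arrays were well above background, only replicate C was in hippocampus Sox2-GFP, and none was in hippocampus DCX-DsRed. On this probe and with the main scaling, SVZ Sox2-GFP was at least 2.64-fold higher than hippocampus DCX-DsRed. That bound was set by the lowest signal well above background on each hippocampus DCX-DsRed array. It does not hold with normexp, where the difference was 0.96 and these groups overlapped. With quantile or median scaling they did not overlap.

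Over the 9 arrays the brightest Neil3 probe correlated with the second at r = 0.696 and with the third at 0.606, and these correlations share the array scaling. The first 2 probes put SVZ Sox2-GFP above hippocampus Sox2-GFP with no overlap, also with normexp, quantile or median scaling. The order of the probes is no support for the difference, which was in view when the gene was chosen. The third also passed the filter through the SVZ arrays, where it was high. Its gap between these groups was 0.14, and with each of those 3 scalings they overlapped. Hippocampus Sox2-GFP minus hippocampus DCX-DsRed was -0.56 and -2.11 on the first 2 probes, with overlap. The third gives no order of the hippocampal groups, since it was well above background on 1 of their 6 arrays.

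Slides, inferred from the barcode in the name of each deposited scanner table and numbered in barcode order, held unequal shares of the groups. Slide 1 carried SVZ replicate A with hippocampus DCX-DsRed replicates A and B, slide 2 carried hippocampus Sox2-GFP replicates A and B alone, and slide 3 carried the other 4 arrays. Within slide 3, Neil3's brightest probe was 1.75 higher on the 2 SVZ arrays than on the hippocampus Sox2-GFP array, and 1.44 higher than on the hippocampus DCX-DsRed array. Within slide 1 the SVZ array was 2.28 higher than the mean of the 2 hippocampus DCX-DsRed arrays. With slide as a block, the fit gave 1.89 for SVZ Sox2-GFP minus hippocampus Sox2-GFP. That fit sets hippocampus Sox2-GFP against the other groups through its replicate C alone, since slide 2 held no other group. With no block and without hippocampus Sox2-GFP replicate C, the difference between these 2 groups was 2.42. The hippocampal groups then separated, with hippocampus Sox2-GFP lower by a difference of -0.69. These values are of the brightest probe. On the second Neil3 probe the slides disagreed in sign for SVZ Sox2-GFP minus hippocampus DCX-DsRed, at 4.03 within slide 1 and -1.18 within slide 3.

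Neil1 and Neil2, the paralogs of Neil3, excise oxidised pyrimidines. Neil1's brighter probe read 2.35, 1.55 and 1.70 in SVZ Sox2-GFP, 1.1, 1.59 and 0.54 in hippocampus Sox2-GFP and 1.07, 0.36 and 0.41 in hippocampus DCX-DsRed. The SVZ arrays lay above all hippocampus DCX-DsRed arrays, while hippocampus Sox2-GFP overlapped both other groups. The mean was 2.38-fold higher in SVZ Sox2-GFP than in hippocampus DCX-DsRed (difference 1.25, SE 0.429). Without hippocampus Sox2-GFP replicate C, hippocampus Sox2-GFP also lay above hippocampus DCX-DsRed, by 0.73. Neil1's second probe, placed within 100 bases of the first by the files, did not show this order. It read -1.82, -1.09 and -0.59 in SVZ Sox2-GFP, -0.83, -0.32 and -4.70 in hippocampus Sox2-GFP and -1.18, -2.39 and 0.15 in hippocampus DCX-DsRed, with all groups overlapping. The Neil2 probe read -0.17, -2.66 and -2.21 in SVZ Sox2-GFP, -1.86, -2.60 and -3.68 in hippocampus Sox2-GFP and -0.68, -0.38 and -2.40 in hippocampus DCX-DsRed. SVZ replicate A and hippocampus DCX-DsRed replicates A and B were the high arrays of Neil2, and every pair of groups overlapped.

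Nthl1, which excises oxidised pyrimidines and nicks the strand itself, ran the other way from Neil3 between SVZ Sox2-GFP and hippocampus DCX-DsRed cells. It read 0.23, -0.79 and -1.52 in SVZ Sox2-GFP, -0.64, 0.38 and -1.36 in hippocampus Sox2-GFP and 0.37, 0.84 and 0.43 in hippocampus DCX-DsRed. All hippocampus DCX-DsRed arrays lay above the SVZ arrays, by a gap of 0.14, and the mean was 2.36-fold lower in SVZ Sox2-GFP (difference -1.24, SE 0.586). Within slides that difference was -0.37 on slide 1 and -1.58 on slide 3.

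Ogg1 and Mutyh, the glycosylases of the 8-oxoguanine pathway, varied widely between replicates. Ogg1, which removes 8-oxoguanine paired with cytosine, was dim. Its brighter probe read -4.67, -4.37 and -5.30 in SVZ Sox2-GFP, -3.42, -4.26 and -6.44 in hippocampus Sox2-GFP and -5.27, -3.38 and -6.91 in hippocampus DCX-DsRed, and it was well above background on 6 of the 9 arrays. Its second probe overlaps the first by 40 bases and did not pass the filter, being well above background on 2 arrays. No pair of groups separated on either. Without hippocampus Sox2-GFP replicate C, the brighter probe was 0.94 lower in SVZ Sox2-GFP than in hippocampus Sox2-GFP with no overlap.

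Mutyh removes adenine mispaired with 8-oxoguanine. Its brightest probe spanned -3.65 to 0.59 in SVZ Sox2-GFP, -2.65 to -0.71 in hippocampus Sox2-GFP and -5.29 to -1.67 in hippocampus DCX-DsRed. The second spanned -4.17 to -2.65 in SVZ Sox2-GFP, -4.26 to -1.34 in hippocampus Sox2-GFP and -2.83 to -0.55 in hippocampus DCX-DsRed. On the third, values were -3.08 to -1.17 in SVZ Sox2-GFP, -7.43 to -3.04 in hippocampus Sox2-GFP and -4.29 to -3.22 in hippocampus DCX-DsRed. The probes did not track each other over the 9 arrays, with r between -0.19 and 0.02. With all arrays and the main scaling, only the third separated a pair of groups, SVZ Sox2-GFP above hippocampus DCX-DsRed by a gap of 0.14. With quantile or median scaling it also put SVZ Sox2-GFP above hippocampus Sox2-GFP, where 1 array was well above background. If hippocampus Sox2-GFP replicate C is left out, the second was lower in SVZ Sox2-GFP than in hippocampus Sox2-GFP with no overlap (difference -2.04). No direction is therefore given for Mutyh as a gene.

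Ung, the main glycosylase for uracil in DNA, was lowest in hippocampus Sox2-GFP cells. Its probe read -2.88, -3.88 and -3.27 in SVZ Sox2-GFP, -5.45, -4.63 and -5.33 in hippocampus Sox2-GFP and -3.87, -4.29 and -1.94 in hippocampus DCX-DsRed. Every hippocampus Sox2-GFP array lay below every array of both other groups, and replicate A of that group was not well above background. SVZ Sox2-GFP was 3.47-fold higher than hippocampus Sox2-GFP (difference 1.80, SE 0.640), and hippocampus Sox2-GFP was lower than hippocampus DCX-DsRed by a difference of -1.77. That second difference was -1.06 without hippocampus DCX-DsRed replicate C, -0.73 with normexp and -3.39 within slide 3. SVZ Sox2-GFP and hippocampus DCX-DsRed overlapped, and the slides disagreed in sign: their difference was 0.02 over all arrays, 1.20 within slide 1, -1.63 within slide 3 and 0.74 without hippocampus DCX-DsRed replicate C. With normexp background correction the SVZ Sox2-GFP minus hippocampus Sox2-GFP difference was 0.74, and with normexp or quantile normalization the hippocampal groups overlapped. Without hippocampus Sox2-GFP replicate C the difference between regions was 1.70.

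Tdg and Mbd4 remove thymine or uracil mispaired with guanine, and Tdg also removes the formyl and carboxyl forms of cytosine made during DNA demethylation. Tdg's brighter probe read -0.995, -1.02 and -1.60 in SVZ Sox2-GFP, -1.29, -1.45 and -0.76 in hippocampus Sox2-GFP and -0.43, -0.62 and -1.65 in hippocampus DCX-DsRed, with all groups overlapping. A second probe that carries the name Tdg is placed 40.3 Mb away on the same chromosome by the files, so whether it reads Tdg is uncertain. It spanned -2.07 to 0.51 in SVZ Sox2-GFP, -4.02 to -1.28 in hippocampus Sox2-GFP and -1.17 to -0.78 in hippocampus DCX-DsRed, and the hippocampal groups did not overlap.

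Mbd4 had the widest replicate spread of the 10 genes. It read -3.47, -3.21 and 0.93 in SVZ Sox2-GFP, -1.51, -0.30 and -4.50 in hippocampus Sox2-GFP and -2.84, -2.98 and -4.63 in hippocampus DCX-DsRed. In each group replicate C lay apart from the other 2, upward in the SVZ and downward in the hippocampal groups. Without hippocampus Sox2-GFP replicate C, Mbd4 was 2.58 higher in hippocampus Sox2-GFP than in hippocampus DCX-DsRed with no overlap, against 1.39 with it. Apex1, the endonuclease that cuts at the empty site a glycosylase leaves, read -0.89, -1.22 and -2.69 in SVZ Sox2-GFP, -2.07, -1.85 and 1.16 in hippocampus Sox2-GFP and -1.74, -0.80 and -1.78 in hippocampus DCX-DsRed. Hippocampus Sox2-GFP replicate C was its highest array, and all groups overlapped. With that array left out, Apex1 was lower in hippocampus Sox2-GFP than in hippocampus DCX-DsRed with no overlap, by a difference of -0.52. With it, that difference was 0.52.

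**Figure D2:**
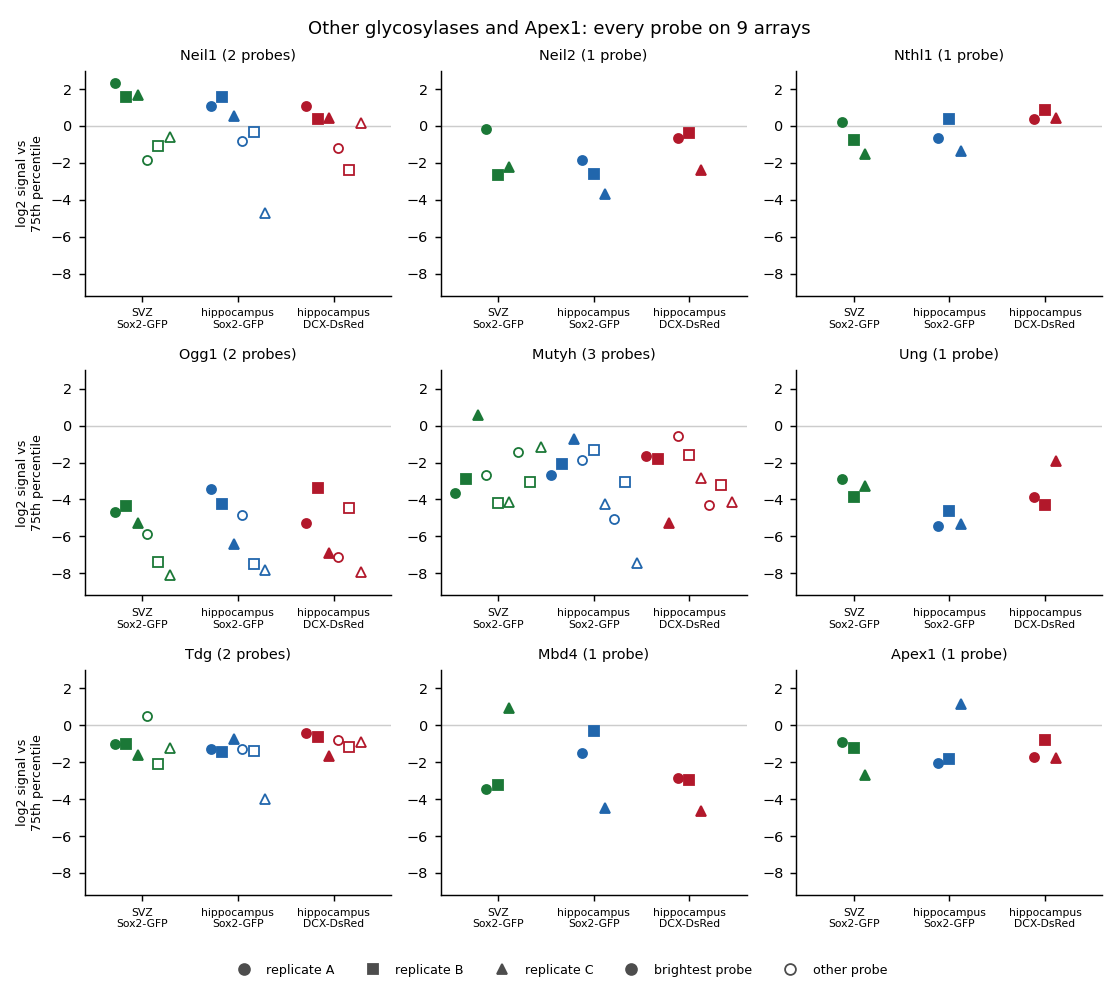
Level of each probe of the other 9 genes on the 9 arrays (vertical axis, log2 signal minus that array's 75th percentile); filled symbols are the brightest probe of a gene, open symbols its other probes, and the shape gives the replicate. Ung is lowest on the 3 hippocampus Sox2-GFP arrays, while the probes of Mutyh disagree and the replicates of Mbd4 spread by over 4 log2 units in both Sox2-GFP groups.

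Replicate spread differed between genes and between probes of a gene. On the brightest probe of each gene, the SD pooled over the groups was 0.358 for Neil3 and 0.450 for Neil1. It was 1.86 for Mutyh and 1.98 for Mbd4. The median of this pooled SD was 0.972 over the 10 genes and 0.702 over all 24891 genes. The low values of Neil3 and Neil1 belong to their brightest probes, since their second probes had a larger SD in every group. The third Neil3 probe had a larger SD in both Sox2-GFP groups and a smaller one in hippocampus DCX-DsRed. Of the 17 probes, 11 were well above background on all 9 arrays and 6 had their lowest value on hippocampus Sox2-GFP replicate C. The 10 genes did not move as a group: 5 of 10 had a higher mean in SVZ Sox2-GFP than in hippocampus Sox2-GFP, 6 of 10 a higher mean in SVZ Sox2-GFP than in hippocampus DCX-DsRed, and 5 of 10 a higher mean in hippocampus Sox2-GFP than in hippocampus DCX-DsRed. The median difference of the 10 genes was 0.07, 0.22 and 0.10 in these comparisons, against 0.08, -0.02 and -0.08 over all genes.

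Of the 16 probes that passed the filter, 4 were higher in SVZ Sox2-GFP than in hippocampus Sox2-GFP with no overlap, the 3 of Neil3 and that of Ung, and none was lower. The third Neil3 probe was among them through the SVZ arrays alone. The background for separated groups in this comparison was 8.05% of 36779 probes higher and 8.42% lower. Between SVZ Sox2-GFP and hippocampus DCX-DsRed, 4 probes were higher with no overlap (2 of Neil3, 1 of Neil1 and 1 of Mutyh) and 1 was lower (Nthl1), with backgrounds of 10.7% and 10.6%. Between hippocampus Sox2-GFP and hippocampus DCX-DsRed, 1 was higher (the third Neil3 probe, mostly not above background there) and 2 were lower (Ung and the distant Tdg probe), with backgrounds of 11.9% and 12.7%. The comparisons share arrays, and nothing is read from these counts, since the values were in view when the genes were chosen.

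**Figure D3:**
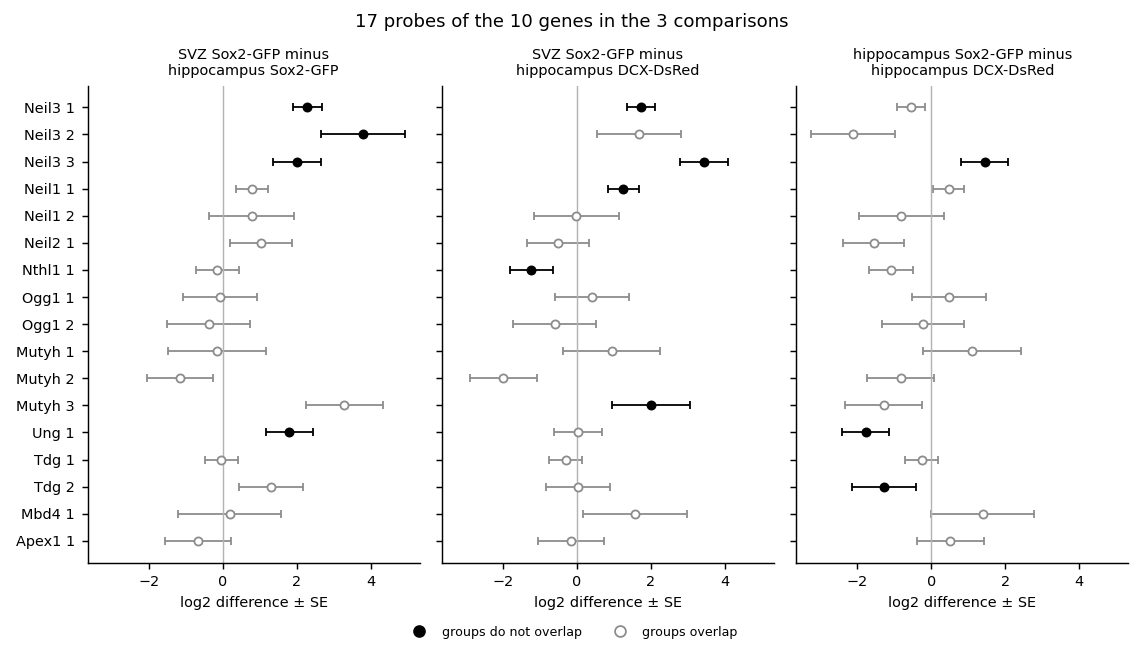
Difference of each of the 17 probes (horizontal axis, log2 difference of group means ± SE from limma, 3 arrays a group) in the 3 comparisons; probes of a gene are numbered from its brightest, and filled points mark groups that do not overlap. In SVZ Sox2-GFP minus hippocampus Sox2-GFP cells Neil3 probes 1 and 2 lie at 2.29 and 3.78, Neil3 probe 3 is mostly not above background in the hippocampus, and most other probes scatter on both sides of 0.

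Lists of genes that work beside the glycosylases were tested in the fit across all 24891 genes. They held 79 measured genes: enzymes of repair synthesis and ligation (22 genes), other glycosylases and nucleotide pool enzymes (5) and interstrand crosslink repair (19). The rest were genes of oxidative demethylation and of methylation of DNA (10) and of the cell cycle (23). No gene of these lists was called in any of the 3 comparisons by limma at an adjusted p under 0.05. Over all genes, 0.402% were called for SVZ Sox2-GFP minus hippocampus Sox2-GFP, 1.52% for SVZ Sox2-GFP minus hippocampus DCX-DsRed and 3.19% for hippocampus Sox2-GFP minus hippocampus DCX-DsRed. At an unadjusted p under 0.05 there were 8 of 79 (10.1%) for SVZ Sox2-GFP minus hippocampus Sox2-GFP, 8 (10.1%) for SVZ Sox2-GFP minus hippocampus DCX-DsRed and 11 (13.9%) for hippocampus Sox2-GFP minus hippocampus DCX-DsRed. The same share over all genes was 10.8%, 13.7% and 16.9%. The absence of calls depended on the setting: with slide as a block, 5, 3 and 5 list genes were called in these comparisons, and between the hippocampal groups normexp gave 2. With eBayes set to trend and robust there were 0, 0 and 1. Under the slide block, both comparisons with hippocampus Sox2-GFP rest on its replicate C, the only array of that group sharing a slide with others.

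Among enzymes of repair synthesis and ligation, the gene with the smallest p differed by comparison. Polb, the polymerase that fills the gap in short-patch repair, differed by 1.20 (SE 0.516, limma adjusted p = 0.455) between SVZ Sox2-GFP and hippocampus Sox2-GFP, at 1.22 ± 0.77 against 0.02 ± 0.65. Poll, another gap-filling polymerase, differed by -0.94 (adjusted p = 0.314) between SVZ Sox2-GFP and hippocampus DCX-DsRed. Fen1, the flap nuclease of long-patch repair and of replication, differed by -2.54 (adjusted p = 0.122) between hippocampus Sox2-GFP and hippocampus DCX-DsRed, with no overlap. The list's median difference was 0.06, -0.29 and -0.40 in these comparisons.

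Nudt1, which clears oxidised guanine nucleotides from the pool, was the gene with the smallest p of its list in both comparisons with hippocampus Sox2-GFP. It read -0.23, -0.24 and -0.41 in SVZ Sox2-GFP, 0.26, 0.56 and 0.51 in hippocampus Sox2-GFP and -0.27, -0.46 and -0.66 in hippocampus DCX-DsRed. The hippocampus Sox2-GFP arrays were the high ones, with differences of -0.74 for SVZ Sox2-GFP minus hippocampus Sox2-GFP (limma adjusted p = 0.400) and 0.90 for hippocampus Sox2-GFP minus hippocampus DCX-DsRed (adjusted p = 0.140). Mpg, the glycosylase for alkylated purines, differed by 1.26 between SVZ Sox2-GFP and hippocampus DCX-DsRed (adjusted p = 0.393). Of the genes of interstrand crosslink repair, the process in which Neil3 acts in frog extracts, Fancl, its ubiquitin ligase, differed by -1.56 between SVZ Sox2-GFP and hippocampus Sox2-GFP (adjusted p = 0.320) and by 2.09 between hippocampus Sox2-GFP and hippocampus DCX-DsRed (adjusted p = 0.0702). Fanci, a target of that ligase, differed by 2.74 between SVZ Sox2-GFP and hippocampus DCX-DsRed (adjusted p = 0.143). The median difference of the crosslink list was 0.28, -0.06 and -0.53 in SVZ Sox2-GFP minus hippocampus Sox2-GFP, SVZ Sox2-GFP minus hippocampus DCX-DsRed and hippocampus Sox2-GFP minus hippocampus DCX-DsRed.

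The list of oxidative demethylation, in which Tdg acts, also held genes of DNA methylation, namely Dnmt1, Dnmt3a, Dnmt3b and Uhrf1. Uhrf1, a reader of half-methylated DNA, differed by 1.63 between SVZ Sox2-GFP and hippocampus Sox2-GFP (limma adjusted p = 0.397). Dnmt1, the maintenance methyltransferase, differed by -1.08 between SVZ Sox2-GFP and hippocampus DCX-DsRed (adjusted p = 0.242). Gadd45g, a stress-induced gene linked to demethylation, read 1.94, 0.51 and 1.66 in SVZ Sox2-GFP, 1.92, 1.94 and 2.98 in hippocampus Sox2-GFP and -0.31, 0.58 and -0.88 in hippocampus DCX-DsRed. Its difference between hippocampus Sox2-GFP and hippocampus DCX-DsRed was 2.48 (SE 0.553, adjusted p = 0.0548), and it passed the threshold under 6 of 20 other settings.

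Neil3 is known from other work to be expressed with the cell cycle, so its list is given as well. Top2a, the topoisomerase of dividing cells, had the smallest p in both comparisons with SVZ Sox2-GFP. It read -0.26, 0.19 and -1.52 in SVZ Sox2-GFP, -2.85, -3.76 and -4.27 in hippocampus Sox2-GFP and -2.99, -2.48 and -4.16 in hippocampus DCX-DsRed. Each SVZ array lay above all hippocampal arrays, as for Neil3, with differences of 3.09 against hippocampus Sox2-GFP (SE 0.630, limma adjusted p = 0.113) and 2.68 against hippocampus DCX-DsRed (adjusted p = 0.0952). Rrm2, a subunit of ribonucleotide reductase, was well above background on no hippocampus DCX-DsRed array and on 2 hippocampus Sox2-GFP arrays. Its measured means were -4.37 in hippocampus Sox2-GFP and -6.57 in hippocampus DCX-DsRed (limma adjusted p = 0.0669 for that difference). With hippocampus DCX-DsRed raised to its background limit, hippocampus Sox2-GFP was 2.29-fold higher, on a mean that includes an array not well above background. In SVZ Sox2-GFP the Rrm2 mean was -5.35, below that of hippocampus Sox2-GFP, unlike Top2a. The median difference of the 23 cell cycle genes was 0.39 for SVZ Sox2-GFP minus hippocampus Sox2-GFP, 0.03 for SVZ Sox2-GFP minus hippocampus DCX-DsRed and -0.33 for hippocampus Sox2-GFP minus hippocampus DCX-DsRed. Of these genes, 17, 13 and 8 had a difference above 0.

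**Figure D4:**
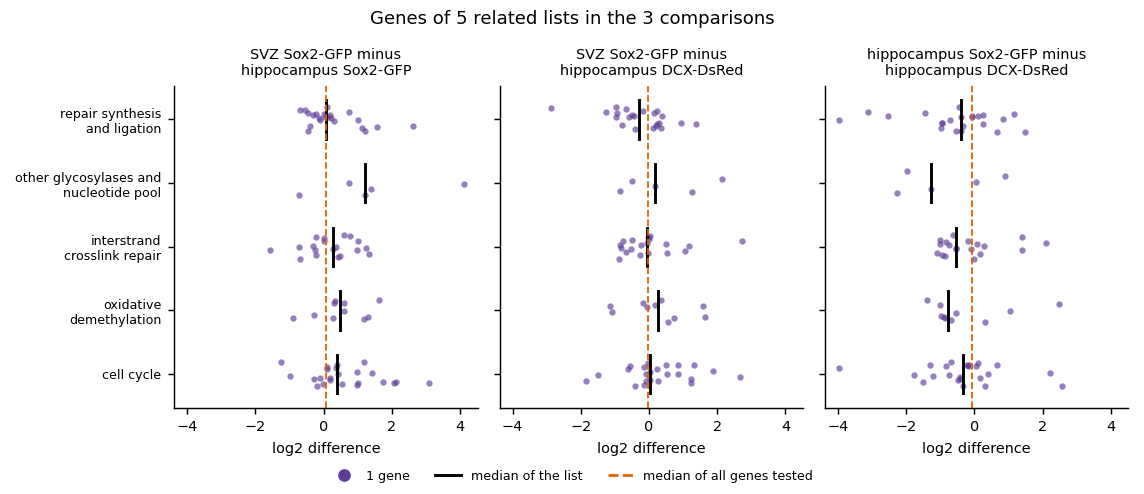
Difference of each gene of the 5 lists (horizontal axis, log2 difference of group means; 1 point a gene) in the 3 comparisons, with the median of each list as a bar and the median of all 24891 genes as a dashed line. No point passed the adjusted threshold, and the largest cell cycle difference in the left panel, 3.09, is that of Top2a.

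Among 17247 genes with an official name, the pattern most like that of Neil3's brightest probe over the 9 arrays was that of Ero1b (Pearson r = 0.964), an oxidase of protein folding in the endoplasmic reticulum. It was followed by Cdcp1, Pipox, Casp4, Spink10, Cfp, Rbbp6, Cir1, Med13 and B4galnt4, the last at r = 0.908. In 9 of these 10 genes each SVZ array lay above all 6 hippocampal arrays, an order that picking genes by likeness to Neil3 favours. Over all 24891 genes, 750 (3.01%) showed this order. Nothing is read from the 9 of 10, since the selection favours it. Spink10 was well above background on the 3 SVZ arrays and on no hippocampal array, so it has no measured order there. Its SVZ signal was at least 9.96-fold higher than in hippocampus Sox2-GFP. The other 9 were well above background on all 9 arrays, with SVZ Sox2-GFP minus hippocampus Sox2-GFP differences of 0.28 for Med13 to 3.38 for B4galnt4. Within the 6 hippocampal arrays alone, r of these 9 with Neil3 ran from 0.22 for Rbbp6 to 0.97 for B4galnt4. Without the 2 arrays farthest from the Neil3 median, SVZ replicates A and C, it ran from 0.80 for Casp4 to 0.99 for B4galnt4. SVZ replicate B stayed in, above all 6 hippocampal arrays for Neil3, so these values still hold the contrast between regions. The cell cycle list lay on both sides, from Top2a at place 21 (r = 0.861) to E2f1 at place 14892 (r = -0.425). Between them, Mki67 ranked at place 450 (r = 0.669) and Rrm2 at place 11887 (r = -0.190). Of the other 9 genes chosen by name, the closest was Neil1 at place 668 with r = 0.624, and Ung ranked at place 1275 with r = 0.541. All these points share the arrays, their scaling and the 3 groups.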

How the data were processed

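For every array the authors deposited its scanner table. Per the file headers, Agilent Feature Extraction 9.5.1.1 gave the processed signal, an intensity after background subtraction, together with the mean and local background intensity of each spot and its flags. That deposited intensity was not normalized between arrays, and the submitters' processing notes name limma without a version. Gene names came by probe from an intact file, since 47 symbols were altered in that of replicate A of hippocampus DCX-DsRed.

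Groups and replicate letters came from the sample titles, and slides from the barcode in the name of each scanner table. The sample labels name no slide. Control and outlier-flagged spots were dropped, spots of a probe were averaged, and log2 of the processed signal was taken minus the array's 75th percentile. Probes had to stand well above background on 3 or more of the 9 arrays, and the brightest probe stood for its gene. limma 3.58.1 in R 4.3.3 (lmFit, eBayes) used the 9 arrays together with 6 residual degrees of freedom. P-values were adjusted by Benjamini-Hochberg across 24891 genes, and genes under 0.05 were called. The fit was tested on simulated data. With 3 arrays a group, their number limits the precision, and a p-value reflects only how these samples vary, possibly for technical reasons.

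The members and all gene lists were chosen with earlier results of these data known. Members were described without a test. Of each list and comparison, up to 4 called genes with the largest difference were to be named, or else the gene with the smallest p. Likeness to Neil3 was ranked by Pearson r, without clone and model names. Coordinates of probes are not printed, because their build is not given in the sources used here. Other settings were normexp background correction (offset 50), quantile and median scaling, other filters, the mean over probes, slide and replicate letter as blocks, single slides, trend and robust, only the 2 groups compared, and each array left out.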

Additional observations from a re-analysis of the deposited data

How the results depend on the processing

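Of 604 member differences recomputed under other settings, 570 moved by less than the spread between replicates, and 34 moved by more. Part of the 604 could not move, so these counts do not measure how steady the values are. The replicate block, trend and robust, and only the 2 groups compared leave a difference of group means as it is. So does leaving out an array of the group not compared. The sign changed in 52 of the 604 values, spread over 19 of the 30 differences. It was kept in all settings in 11, among them the 3 of Neil3. Neil3 in SVZ Sox2-GFP minus hippocampus DCX-DsRed ran from 1.44 to 2.28. Of 299 recomputed values of the named list genes, 293 stayed on their side of the threshold and 6, all of Gadd45g in the hippocampal comparison, passed it. The cause of these changes was not tested.

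The count of genes called for SVZ Sox2-GFP minus hippocampus Sox2-GFP was 100 (11 higher), against 162 with normexp, 50 with probes well above background on all 9 arrays, 173 with the mean over probes, 2151 with the slide block, 8 with only the 2 groups compared and 0 on slide 3 alone. For SVZ Sox2-GFP minus hippocampus DCX-DsRed it was 379, against 795 with the slide block and 0 on slide 3 alone. For hippocampus Sox2-GFP minus hippocampus DCX-DsRed it was 795, against 2032 with the slide block and 0 on slide 3 alone. Within slide 3, the lone hippocampal arrays were assumed to vary like the SVZ arrays. The slide block sets hippocampus Sox2-GFP against the other groups through its replicate C alone, the array that stood apart. The slide block changed the share of higher calls from 11.0% to 64.3% between regions, from 35.6% to 44.7% against hippocampus DCX-DsRed and from 55.1% to 36.6% between the hippocampal groups. It also moved the median of all genes between regions to 0.25, and slide 3 alone moved it to 0.28, against 0.08.

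With the replicate block, the counts were 13, 186 and 485 in the order above. Same-letter arrays deviated together by r of -0.0442 to 0.115, with 1 of 9 pairs over 0.1, so the letters were not taken as pairs. Leaving out 1 array gave 35 to 102, 49 to 852 and 250 to 783 calls. The lowest came without hippocampus Sox2-GFP replicate A for the regions and without hippocampus DCX-DsRed replicate A for the other comparisons, and the highest without hippocampus Sox2-GFP replicate C. The count moved by over 1.5 times without any of the 9 arrays for SVZ Sox2-GFP minus hippocampus DCX-DsRed, and without any hippocampus DCX-DsRed array or hippocampus Sox2-GFP replicate A or B for the hippocampal groups. For the regions it did so without hippocampus Sox2-GFP replicate A or replicate A or B of SVZ Sox2-GFP or of hippocampus DCX-DsRed.

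Calls among the 79 list genes, 0 in the main setting, were 5, 3 and 5 with the slide block. Between the hippocampal groups they were 2 with normexp and 1 with quantile normalization, with all 9 arrays well above background, with the mean over probes, and with trend and robust. They were 0 to 1 with 1 array left out for SVZ Sox2-GFP minus hippocampus DCX-DsRed (1 without hippocampus Sox2-GFP replicate C) and 0 for the other comparisons. Dim probes, such as those of Ogg1 and the third of Neil3, limit what can be said of low levels.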
